A study of Mus musculus with 11 samples.

Results

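Skeletal muscle genes in the mandibular condylar fibrocartilage, the tissue that caps the jaw joint, are described here across 11 mouse libraries. The 37 genes were taken from a list of sarcomere, calcium and muscle energy genes and found by symbol among the 23420 symbols of the count table. The listed genes were 12 of the thick filament, 8 of the thin filament, 8 of the Z-disc and scaffold, 5 of calcium handling and 4 of energy supply. The rule names genes and uses no measured value, but the list was chosen with earlier results of these data known.

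All mice were C57BL/6 females that were ovariectomized at 6 weeks of age and whose tissue was collected at 7 weeks. For the 1 week between, they carried a placebo pellet or a 17β-estradiol pellet of 0.01 mg made to release over 60 days. Genotype was wild type (WT) or ERalphaKO, a knockout of estrogen receptor alpha (KO), which gave WT placebo (n = 2), WT estradiol (n = 3), KO placebo (n = 3) and KO estradiol (n = 3). Poly-A RNA of all cells in the dissected tissue was sequenced, and the labels do not say whether each library was a different animal, so p-values measure the spread between libraries, which may be technical. The way the receptor allele was made is not in the labels.

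In skeletal muscle, myosin thick filaments pull on actin thin filaments within a repeating unit, the sarcomere, which the Z-disc borders and titin spans. A nerve signal opens the calcium channel Ryr1 in the sarcoplasmic reticulum, calcium binds troponin C on the thin filament, and the pump Atp2a1 returns it. Fast and slow fibres carry different genes for the same parts, among them Myh2, Myh1 and Myh4 in fast fibres and Myh7 in slow ones, while Myh3 and Myh8 are myosins of developing or regrowing muscle. The chewing muscles attach close to the condyle, and the lateral pterygoid inserts on it.

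The sequences before the starts of 6 of these genes are shown, because 3 of them are neighbouring myosin heavy chain genes that took unequal shares of the counts, and the other 3 follow the summed muscle level. On chromosome 11 the order of the cluster is Myh3, Myh2, Myh1, Myh4, Myh8 and Myh13, of which Myh13 is not a listed gene. Each is 250 bases up to the base before the start, 5′ to 3′ on the gene's strand, from the RefSeq promoter table (GRCm38.p6). Capitals mark CAGCTG (the E-box form that myogenic factors favour), TATAAA and the MEF2 box, on either strand.
Myh2, chr11:67170777-67171026, plus strand: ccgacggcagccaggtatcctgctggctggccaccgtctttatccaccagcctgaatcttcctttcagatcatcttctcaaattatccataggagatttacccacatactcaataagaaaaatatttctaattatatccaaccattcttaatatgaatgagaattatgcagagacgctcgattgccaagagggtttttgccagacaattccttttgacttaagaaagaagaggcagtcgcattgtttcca
Myh1, chr11:67199852-67200101, plus strand: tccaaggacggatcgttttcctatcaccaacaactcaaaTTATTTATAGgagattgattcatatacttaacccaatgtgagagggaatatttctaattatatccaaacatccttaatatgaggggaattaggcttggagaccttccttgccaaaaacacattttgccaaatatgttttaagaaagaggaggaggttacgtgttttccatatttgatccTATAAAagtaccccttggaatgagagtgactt
Myh4, chr11:67237562-67237811, plus strand: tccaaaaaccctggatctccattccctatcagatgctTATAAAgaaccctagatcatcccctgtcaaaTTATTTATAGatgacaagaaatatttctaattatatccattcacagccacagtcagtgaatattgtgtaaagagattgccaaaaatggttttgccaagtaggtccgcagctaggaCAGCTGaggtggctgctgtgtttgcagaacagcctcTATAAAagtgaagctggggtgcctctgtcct
Acta1, chr8:123894776-123895025, minus strand: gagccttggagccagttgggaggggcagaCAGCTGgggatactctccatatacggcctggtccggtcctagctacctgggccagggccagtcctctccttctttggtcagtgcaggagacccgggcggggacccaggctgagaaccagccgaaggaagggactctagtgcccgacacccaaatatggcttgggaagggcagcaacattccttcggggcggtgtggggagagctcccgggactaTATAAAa
Des, chr1:75360042-75360291, plus strand: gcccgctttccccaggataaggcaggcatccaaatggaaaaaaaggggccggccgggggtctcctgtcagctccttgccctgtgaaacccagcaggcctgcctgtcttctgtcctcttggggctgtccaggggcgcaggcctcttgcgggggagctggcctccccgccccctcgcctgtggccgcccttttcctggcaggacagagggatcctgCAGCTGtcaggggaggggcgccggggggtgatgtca
Ckm, chr7:19410844-19411093, plus strand: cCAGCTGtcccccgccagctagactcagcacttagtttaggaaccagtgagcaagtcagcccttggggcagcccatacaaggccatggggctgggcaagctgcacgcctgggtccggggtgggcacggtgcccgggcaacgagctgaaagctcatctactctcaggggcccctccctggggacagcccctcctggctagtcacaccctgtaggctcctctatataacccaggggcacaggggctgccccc

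The table held 37 windows of 300 bases for 30 members. CAGCTG was found on either strand in 18 of these windows (48.6%), against 16.3% of the 32851 windows of all genes. The broader E-box CANNTG, which includes it, was in 83.8% against 72.3%, and TATAAA, which can overlap a MEF2 box, in 24.3% against 13.6%. A MEF2 box stood in 13.5% (Myh1, Myh4, Myh8, Pvalb and Ttn) against 3.19%. A CArG box, the site of serum response factor, also stood in 13.5% of member windows and in 1.63% of all windows. These matches describe letters in the windows and are not measured sites.

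Libraries held 15.7 to 25.5 M counts. Levels are in CPM, counts per M counts with totals scaled by TMM, and 3 counts, the floor used here for a single library, equalled 0.118 to 0.204 CPM. Rn45s, ribosomal precursor RNA, made up 16.0% of the counts of WT placebo 2 and 1.83% to 3.13% of those of the other libraries. Esr1, the targeted gene, was at 6.43 to 13.4 CPM in WT libraries and 2.55 to 4.86 CPM in KO libraries, without overlap. Those are counts over the whole gene and do not show the deleted part. Summed markers of cartilage ran from 7367 to 24189 CPM and those of fibrous tissue from 109352 to 170151 CPM. Markers of the labelled tissue were thus present in every library. Bone markers were present in every library too, at 6161 to 10156 CPM. Of 10 salivary gland markers, 5 had no count in any library and the sum did not exceed 3.74 CPM.

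The 37 genes made up 0.00396% to 0.200% of the counts of a library, and their summed level differed 58.8-fold between the lowest and the highest. It was 77.7 and 2238 CPM in WT placebo 1 and 2, and 399, 106 and 75.2 CPM in WT estradiol 1 to 3. KO placebo 1 to 3 held 823, 1152 and 151 CPM, and KO estradiol 1 to 3 held 39.5, 38.0 and 40.5 CPM. The KO estradiol libraries were the lowest 3 of all and lay within 1.06-fold of each other, while the libraries within each other group spread widely, by 28.8-fold in WT placebo. The lowest KO placebo library was 3.73-fold above the highest KO estradiol library, and the ratio of the group means was 18.0. WT estradiol libraries overlapped the WT placebo pair, since WT placebo 1 lay between WT estradiol 2 and 3. In bulk tissue, less attached muscle taken at dissection, fewer muscle cells and less RNA per cell cannot be told apart.

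**Figure D1:**
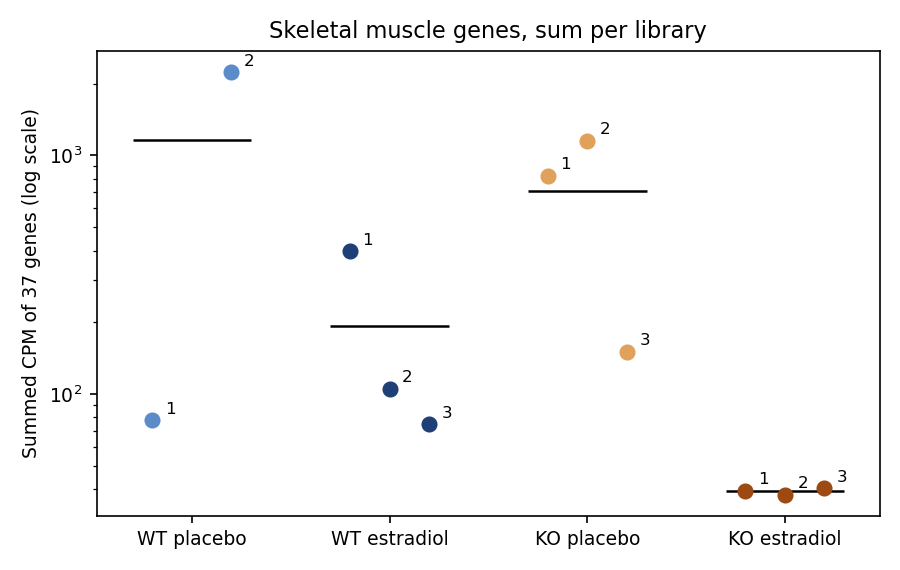
Summed level of the 37 skeletal muscle genes in each library (CPM, log axis), by group; points are libraries with their replicate number and bars are group means. The 3 KO estradiol libraries sit between 38.0 and 40.5 CPM, below all others, and the WT placebo libraries lie at 77.7 and 2238 CPM.

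Most members had a similar profile over the libraries, but the 6 slow fibre genes, Myh4, Actn3 and Mybpc2 did not. Of the 37 genes, 30 were highest in WT placebo 2, which is also the library with the high share of Rn45s. The exceptions were Myh4 and Myl3 (WT placebo 1), Mybpc2 (WT estradiol 1), Actn3 (WT estradiol 2), Tnnc1 (WT estradiol 3), Myh1 (KO placebo 1) and Ckm (KO placebo 2). By role, the sums over thick filament, thin filament, Z-disc, calcium and energy genes ranged 85.6-fold, 93.4-fold, 68.3-fold, 109-fold and 26.2-fold between libraries. KO estradiol held the lowest 3 values of each of the 5 sums. Per library, 4 to 6 of the 37 genes had no count in KO estradiol and 1 to 4 in the other groups.

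**Figure D2:**
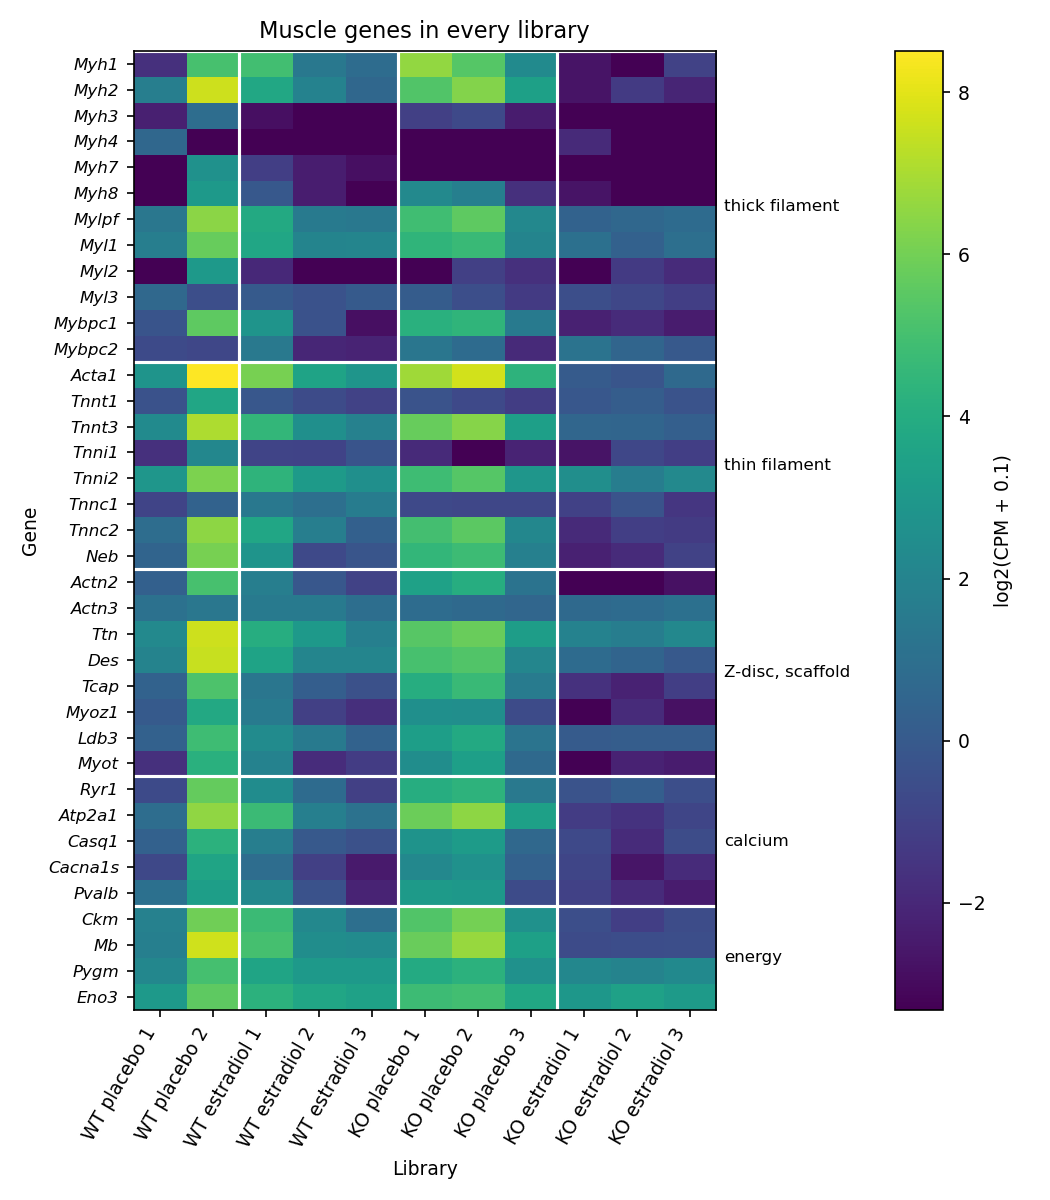
Level of each of the 37 genes (rows, by role) in each of the 11 libraries (columns, by group) as log2(CPM + 0.1). Most rows share 1 profile, brightest in WT placebo 2 and in KO placebo 1 and 2 and darkest in KO estradiol. Actn3, Myl3, Mybpc2, Tnnt1, Tnni1, Tnnc1, Myh4, Myh7 and Myl2 do not.

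Among thick filament genes, the fast fibre myosin heavy chain Myh2 had the highest mean CPM. Its level was 3.23 and 197 CPM in WT placebo, 13.4, 3.73 and 1.44 CPM in WT estradiol, 39.4, 78.7 and 10.5 CPM in KO placebo, and 0.0558, 0.297 and 0.134 CPM in KO estradiol. The placebo and estradiol libraries did not overlap in KO and did overlap in WT. Myh1, the fast myosin of another fibre class, was at 0.215 and 33.2 CPM in WT placebo, 30.6, 2.58 and 1.73 CPM in WT estradiol, 96.6, 42.1 and 4.97 CPM in KO placebo, and 0.0558, 0 and 0.402 CPM in KO estradiol. Its lowest 4 libraries were the 3 of KO estradiol and WT placebo 1. The other thick filament genes that followed the sum were the light chains Mylpf and Myl1, with maxima of 88.8 and 54.2 CPM, and the binding protein Mybpc1, with 48.0 CPM, all in WT placebo 2.

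The myosins of developing muscle were lower than the adult fast ones. Myh8 had 0 and 8.17 CPM in WT placebo, 0.868, 0.0920 and 0 CPM in WT estradiol, 4.69, 3.33 and 0.212 CPM in KO placebo, and 0.0558, 0 and 0 CPM in KO estradiol. In KO this was 187 counts under placebo and 1 under estradiol, a ratio of 156 with an exact 95% counting interval of 27.6 to 6191. Myh3 had 2 and 26 counts in WT placebo, 1, 0 and 0 in WT estradiol, 9, 11 and 2 in KO placebo and none in KO estradiol. Against the floor of 3 counts per library, Myh3 was at least 2.05-fold higher in KO placebo than in KO estradiol. In WT the ratio of placebo to estradiol was 60.0 (interval 9.93 to 2455), and most of those counts came from WT placebo 2. Intervals and floors cover counting error only.

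Myh4, Myh7 and Myl2 fell below the filter on low counts and were not tested. The fast myosin Myh4 had 27 counts in WT placebo 1, 3 in KO estradiol 1 and none in the other 9 libraries. The slow myosin Myh7 had 91 counts in WT placebo 2, 9, 2 and 1 in WT estradiol, and none in WT placebo 1 or any KO library. The slow light chain Myl2 had 124 counts in WT placebo 2 and 0 to 8 elsewhere. Each of these 3 genes thus had most of its counts in 1 library.

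The mix of heavy chains was compared per kb of exon, as a share of the 6 genes. Myh2 took 64.4% and 81.1% in WT placebo, 30.6%, 58.7% and 46.0% in WT estradiol, and 29.0%, 64.4% and 67.8% in KO placebo. Myh1 took 4.11% and 13.1% in WT placebo, 67.0%, 38.8% and 52.8% in WT estradiol, and 68.1%, 33.0% and 30.6% in KO placebo. Thus Myh1 exceeded Myh2 in WT estradiol 1 and 3 and in KO placebo 1, and Myh2 led in the other libraries of those groups. KO estradiol libraries held only 6, 5 and 12 heavy chain counts, too few for a mix.

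Within a group, some of these differences were larger than counting error and others were not. Of Myh1 and Myh2 counts together, Myh1 made up 71.1% in KO placebo 1 (Wilson 95% interval 69.5% to 72.6%), 34.9% in KO placebo 2 (33.0% to 36.7%) and 32.1% in KO placebo 3 (27.5% to 37.01%). In WT estradiol 1 to 3 it was 69.6% (66.8% to 72.2%), 40.9% (33.0% to 49.2%) and 54.5% (43.5% to 65.2%), and in WT placebo 6.25% (2.46% to 14.997%) and 14.4% (13.3% to 15.6%). KO placebo 1 and WT estradiol 1 thus stood apart from the other libraries of their groups, while the intervals of KO placebo 2 and 3, of WT estradiol 2 and 3 and of the WT placebo pair overlapped. The Myh1 share was lower in both WT placebo libraries than in any WT estradiol or KO placebo library, a description for which no test was run. Myh4 took 29.0% of the 93 heavy chain counts in WT placebo 1 (20.8% to 38.9%) and was at 0 of 3621 in WT placebo 2.

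These myosins are close copies. Of all 100-base windows of the GENCODE M21 transcript, 9.73% of Myh1, 9.17% of Myh2, 6.61% of Myh8, 3.85% of Myh4 and 1.15% of Myh3 also occur in another gene of the cluster, and 11.2% of Myh7 in Myh6. How the authors' counting treated such reads is not given, so low counts of Myh3, Myh4 and Myh8 are uncertain. The other 31 members shared no such window. Exons of 7 members overlap a counted gene on the opposite strand, among them Tnnc2 with Ube2c (74.0% of its exon bases), Atp2a1 with Rabep2 (21.9%) and Myl3 with Pth1r (4.65%). Whether counting used strand is not given.

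**Figure D3:**
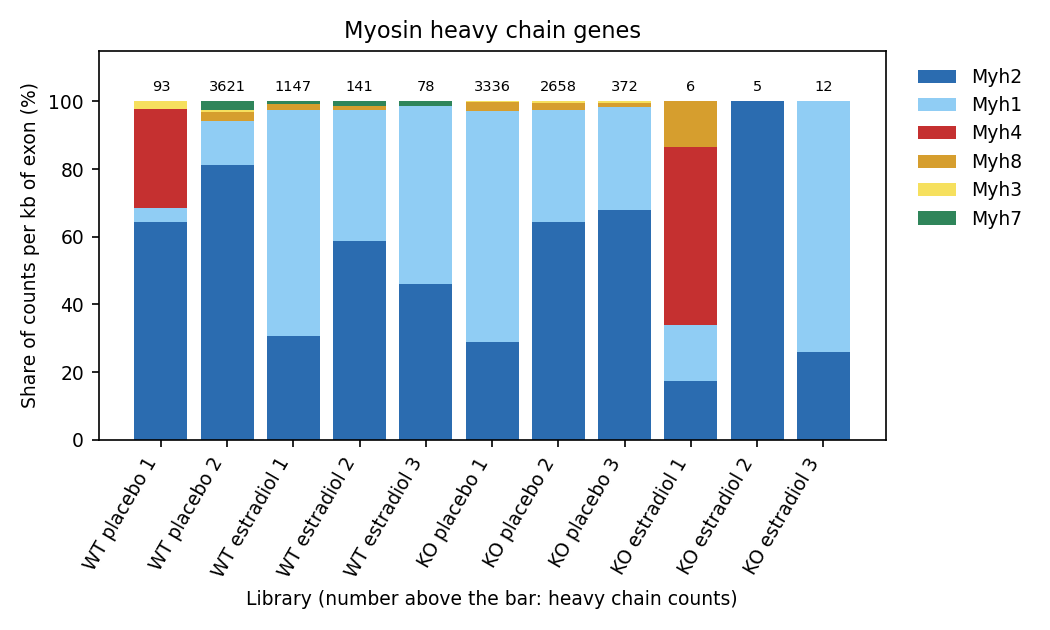
Share of each of 6 myosin heavy chain genes in their counts per kb of exon (percent), by library, with the number of heavy chain counts above each bar. Myh2 holds 81.1% in WT placebo 2 and Myh1 holds 68.1% in KO placebo 1; bars of KO estradiol rest on 5 to 12 counts.

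Among thin filament genes, Acta1, the skeletal muscle actin, had the highest mean per kb of exon of all 37 genes, at 47.5 CPM per kb. Its level was 6.78 and 366 CPM in WT placebo, 68.1, 11.5 and 7.17 CPM in WT estradiol, 112, 208 and 20.005 CPM in KO placebo, and 0.949, 0.772 and 1.56 CPM in KO estradiol. Every KO estradiol library was lower than any other library. Tnnt3, the fast troponin T that ties the troponin complex to tropomyosin, was at 4.95 and 134 CPM in WT placebo, 23.0, 5.84 and 3.59 CPM in WT estradiol, 54.2, 83.6 and 10.02 CPM in KO placebo, and 1.40, 1.37 and 1.12 CPM in KO estradiol. The fast calcium sensor Tnnc2, the fast inhibitory subunit Tnni2 and the giant filament ruler Neb were also lowest in the 3 KO estradiol libraries.

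The slow troponin genes had another profile. Tnnt1 was at 0.700 and 12.7 CPM in WT placebo, 0.829, 0.552 and 0.412 CPM in WT estradiol, 0.719, 0.516 and 0.340 CPM in KO placebo, and 0.837, 1.01 and 0.715 CPM in KO estradiol. It was high in WT placebo 2 only, and KO estradiol libraries were not below KO placebo. Tnni1, the slow inhibitory subunit, was at 0.215 and 4.42 CPM in WT placebo, 0.434, 0.414 and 0.742 CPM in WT estradiol, 0.169, 0 and 0.127 CPM in KO placebo, and 0.0558, 0.475 and 0.357 CPM in KO estradiol. Tnnc1, the troponin C of slow and heart muscle, was at 0.431 and 1.22 CPM in WT placebo, 2.57, 1.89 and 3.01 CPM in WT estradiol, 0.507, 0.469 and 0.467 CPM in KO placebo, and 0.391, 0.712 and 0.268 CPM in KO estradiol. It was highest in the 3 WT estradiol libraries, with no overlap with any other library.

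Summed over fibre classes, the 14 fast genes were at 33.1 and 810 CPM in WT placebo, 170, 39.0 and 25.3 CPM in WT estradiol, 383, 484 and 60.4 CPM in KO placebo, and 15.6, 11.6 and 14.1 CPM in KO estradiol. The 6 slow genes were at 2.85 and 33.5 CPM, 5.25, 3.63 and 5.11 CPM, 2.37, 1.97 and 1.44 CPM, and 1.90, 2.97 and 1.88 CPM in the same order. The slow sum was thus high in WT placebo 2 alone, whereas KO placebo and KO estradiol overlapped in it. As a percent of the fast sum it was lowest in KO placebo, at 0.618, 0.407 and 2.39, and stood at 12.2, 25.6 and 13.3 in KO estradiol.

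In the Z-disc and scaffold group, titin (Ttn), the spring that runs from the Z-disc to the middle of the sarcomere, was at 4.68 and 196 CPM in WT placebo, 16.3, 8.09 and 3.34 CPM in WT estradiol, 43.8, 55.7 and 9.56 CPM in KO placebo, and 3.68, 3.09 and 4.47 CPM in KO estradiol. KO estradiol overlapped WT estradiol here. Desmin (Des), the intermediate filament that links Z-discs, was at 3.82 and 181 CPM in WT placebo, 11.5, 4.09 and 4.04 CPM in WT estradiol, 33.5, 39.7 and 4.25 CPM in KO placebo, and 1.67, 1.31 and 0.894 CPM in KO estradiol. Tcap, which caps titin at the Z-disc, was at 1.24 and 37.02 CPM in WT placebo, 2.41, 1.06 and 0.659 CPM in WT estradiol, 16.5, 26.2 and 2.97 CPM in KO placebo, and 0.223, 0.119 and 0.357 CPM in KO estradiol. Both were lowest in KO estradiol.

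The actin crosslinkers of the Z-disc differed from each other. Actn2, the form of all fibres and of heart, was at 1.13 and 33.3 CPM in WT placebo, 3.24, 0.828 and 0.412 CPM in WT estradiol, 10.9, 16.5 and 2.21 CPM in KO placebo, and 0, 0 and 0.0447 CPM in KO estradiol. That was 660 counts in KO placebo and 1 in KO estradiol, a ratio of 550 (exact 95% counting interval 98.4 to 21769). Actn3, the fast fibre form, ran only from 1.40 to 2.81 CPM over all 11 libraries, with 2.05 and 2.45 CPM in WT placebo, 2.76, 2.81 and 1.85 CPM in WT estradiol, 1.69, 1.55 and 1.40 CPM in KO placebo, and 1.56, 1.66 and 1.97 CPM in KO estradiol. Its groups overlapped, except that every KO placebo library was below every WT library. Myoz1, Ldb3 and Myot, Z-disc proteins that bind these crosslinkers or filamin, followed the sum, with maxima of 14.1, 28.7 and 18.2 CPM in WT placebo 2.

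All 5 calcium genes were highest in WT placebo 2, and in KO their estradiol libraries lay below their placebo libraries. The pump Atp2a1 was at 1.78 and 94.5 CPM in WT placebo, 26.9, 3.36 and 2.10 CPM in WT estradiol, 57.0, 91.6 and 10.4 CPM in KO placebo, and 0.335, 0.237 and 0.447 CPM in KO estradiol. The release channel Ryr1 was at 0.538 and 52.2 CPM in WT placebo, 5.33, 1.66 and 0.371 CPM in WT estradiol, 16.7, 20.02 and 2.63 CPM in KO placebo, and 0.726, 1.07 and 0.626 CPM in KO estradiol. For Atp2a1 every KO estradiol library was below every other library, while for Ryr1 KO estradiol overlapped both WT groups. The calcium store protein Casq1, the voltage sensor Cacna1s and the calcium buffer Pvalb peaked at 19.2, 12.1 and 9.93 CPM in WT placebo 2.

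In energy supply, myoglobin (Mb), the oxygen store, was at 3.34 and 202 CPM in WT placebo, 32.8, 5.56 and 5.15 CPM in WT estradiol, 56.7, 102 and 10.4 CPM in KO placebo, and 0.558, 0.594 and 0.626 CPM in KO estradiol. Muscle creatine kinase (Ckm), which regenerates ATP, was at 3.55 and 61.2 CPM in WT placebo, 27.0, 4.46 and 1.90 CPM in WT estradiol, 39.1, 65.4 and 6.20 CPM in KO placebo, and 0.614, 0.356 and 0.581 CPM in KO estradiol. Both were lowest in the 3 KO estradiol libraries. The glycogen phosphorylase Pygm was at 4.41 and 32.7 CPM in WT placebo, 11.8, 8.28 and 8.20 CPM in WT estradiol, 15.1, 19.5 and 6.16 CPM in KO placebo, and 4.35, 3.86 and 4.83 CPM in KO estradiol.

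The enolase Eno3 was at 8.18 and 48.0 CPM in WT placebo, 19.3, 12.9 and 11.01 CPM in WT estradiol, 27.7, 30.9 and 13.2 CPM in KO placebo, and 7.59, 10.8 and 8.71 CPM in KO estradiol. Pygm and Eno3 had a smaller range than Mb and Ckm, and their KO estradiol libraries overlapped WT placebo 1. Myl3, the light chain of slow and heart muscle, was at 1.51 and 0.612 CPM in WT placebo, 0.908, 0.690 and 0.907 CPM in WT estradiol, 0.972, 0.610 and 0.297 CPM in KO placebo, and 0.614, 0.475 and 0.357 CPM in KO estradiol. Its KO estradiol libraries were all below its WT estradiol libraries and overlapped KO placebo and WT placebo, and WT placebo 2 was not its high library.

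**Figure D4:**
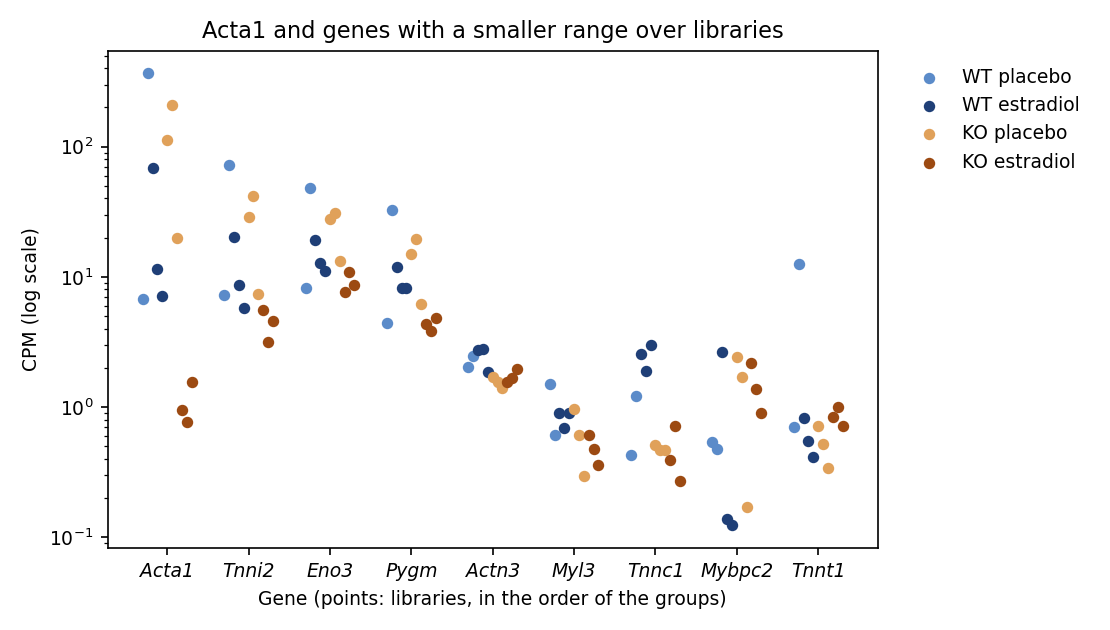
Level of Acta1 and of 8 members with a smaller or different range (CPM, log axis); each point is 1 library, drawn in the order of the groups. Acta1 runs from 0.772 to 366 CPM, Actn3 only from 1.40 to 2.81 CPM, and Tnnc1 is highest in the 3 WT estradiol libraries.

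In KO, most members were lower under estradiol than under placebo. All KO estradiol libraries lay below all KO placebo libraries for 28 of the 37 members, each of them among the 34 tested, against 12.4% of all tested genes. The fitted log2 differences of estradiol over placebo were -8.71 for Actn2 (SE 2.41), -8.03 for Myh2 (SE 2.37), -7.22 for Atp2a1 (SE 2.19), -6.12 for Ckm (SE 1.86) and -5.93 for Tcap (SE 1.65). Adjusted p here come from edgeR's quasi-likelihood test and the Benjamini-Hochberg method over the 14531 genes tested. None of these genes passed by edgeR, with adjusted p of 0.123, 0.147, 0.156, 0.156 and 0.124. None of the 34 members was called at an adjusted p under 0.05, in a comparison where 2.73% of genes were called. At an unadjusted p under 0.05, 27 members were lower and none higher, against 16.5% of genes in either direction and 6.8% lower. With the replicate number as a block over all 11 libraries, WT included, none of the 34 was called (4.33% of genes).

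The median member stood at -4.51 on the log2 scale, against 0.00 for all genes tested, and at -4.28 with Myh3 at its bound. The 6 tested members that overlapped were Myl3, Mybpc2, Tnnt1, Tnni1, Tnnc1 and Actn3, of which 3 are slow fibre troponins. DESeq2 on the same counts called 24 members, all lower (6.55% of genes in either direction and 1.8% lower). A fit of only the 6 KO libraries called 1, Myot (1.62%), and fits without WT placebo 1 or without WT placebo 2 each called 2, Tcap and Actn2 (3.2% and 3.31%). Of the 30 members with an adjusted p in the authors' deposited table, 25 were called, all lower, among them Myot, Atp2a1, Mb and Myh2 (7.52% of genes). The number of calls thus ran from 0 to 25 with the fit, and every called member was lower. Of markers of other cells in these KO libraries, summed blood genes were at 4.44, 551 and 131 CPM under placebo and 982, 3598 and 1226 CPM under estradiol, and their part in the result was not tested.

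Estradiol against placebo in WT showed no such separation. Only 1 of 34 members had all WT estradiol libraries below both WT placebo libraries, against 13.8% of genes, and that member was Myh3. By edgeR none of the 34 members was called (1.55% of genes), 9 were lower and 1 higher at an unadjusted p under 0.05 (14% of genes in either direction and 7.87% lower), and the median log2 difference was -2.67. The smallest adjusted p were 0.0791 for Tnnt1 (log2 -3.45, SE 0.84), 0.109 for Myh3 (-5.52, SE 1.47), 0.137 for Tnnc1 (1.61, SE 0.49), 0.257 for Tcap (-3.77, SE 1.34) and 0.283 for Des (-3.80, SE 1.42). At an adjusted p under 0.1 edgeR called Tnnt1 alone (3.08% of genes). DESeq2 called 2 members, Tnnt1 and Myh3 (4.51% of genes), and the authors' deposited table called Myh3 (3.34%). Without WT placebo 1 edgeR called 4, Tnnt1, Myl2, Myh7 and Myh3 (1.3% of genes), with WT placebo 2 as the lone library of its group. Without WT placebo 2 the median turned to 1.08, and Tcap and Des turned to 0.16 and 0.78.

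The difference between the WT and KO effects of estradiol was tested as an interaction. None of the 34 members was called by edgeR (1.15% of genes), with 1 higher and 2 lower at an unadjusted p under 0.05 (11.6% of genes in either direction) and a median of 1.59, and DESeq2 called 1, Tnnt1 (3.86% of genes). The smallest adjusted p was 0.153 for Tnnt1 (WT effect minus KO effect -4.14, SE 1.21). Without WT placebo 1 edgeR also called Tnnt1 (0.955% of genes). Next came Tnnc1 (1.72, adjusted p = 0.326), Tnni1 (-3.58, 0.395), Myh1 (7.58, 0.474) and Ckm (4.60, 0.583). The estradiol effect on these genes was therefore not shown to differ between genotypes.

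**Figure D5:**
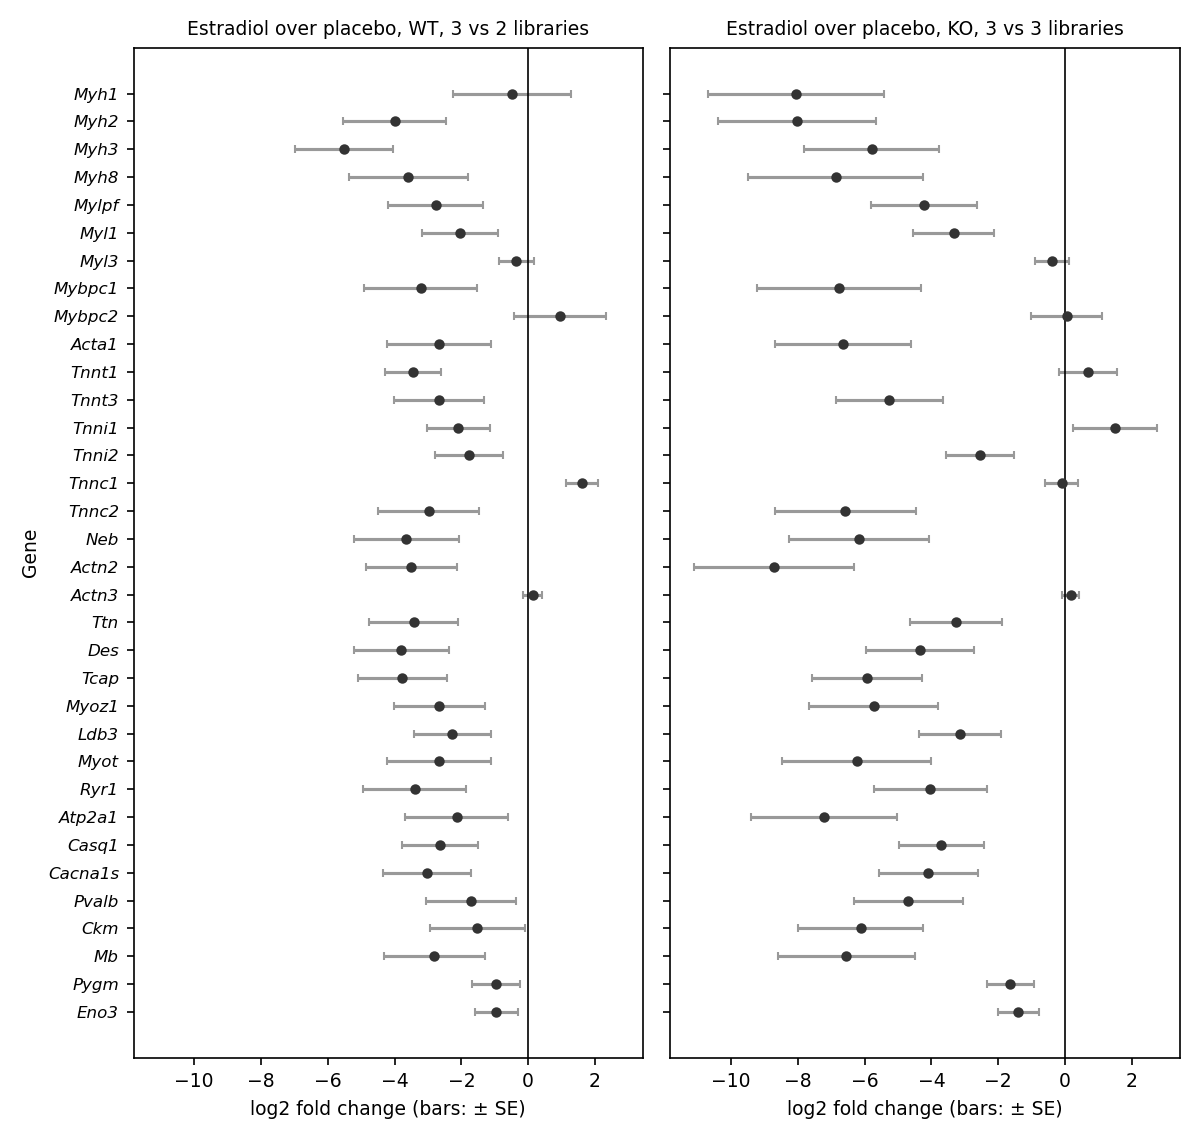
Fitted log2 difference of estradiol over placebo for the 34 tested genes in WT (left) and KO (right), with bars of ± SE from edgeR. In KO most points lie below -2, while Myl3, Mybpc2, Tnnt1, Tnni1, Tnnc1 and Actn3 lie near or above 0; none passed the adjusted test, and Myh3 in KO is a fitted value against 0 counts.

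KO against WT under placebo compared a group of 3 with the divergent WT pair. No member was called by edgeR (0.00688% of genes), 2 were lower at an unadjusted p under 0.05 (9.21% of genes in either direction), and the median log2 difference was -0.74. Those were Tnnt1 (-3.64, SE 0.86) and Tnni1 (-4.41, SE 1.12), each with an adjusted p of 0.468. DESeq2 called the same genes (0.248% of genes), and the authors' deposited table called none of the 37 (0.241%). After them came Actn3 (-0.53, adjusted p = 0.570), Myh3 (-1.47, 0.631) and Myl3 (-0.77, 0.634). Without WT placebo 1 edgeR called Tnnt1, Tnni1 and Myh7 (0.336% of genes). Without WT placebo 2, which held 12.7 CPM of Tnnt1 and 4.42 CPM of Tnni1, the differences were -0.41 and -1.04 and the member median was 2.96.

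KO against WT under estradiol called 1 of 34 members, Tnnc1, against 11.5% of genes. Its level was 2.49 ± 0.57 CPM in WT (SD, n = 3) and 0.457 ± 0.23 CPM in KO (SD, n = 3), and it was lower in 3 of 3 KO libraries. The log2 difference of -2.46 (SE 0.45) had an adjusted p of 0.00452 by edgeR. Over all alternatives its adjusted p ran from 5.59e-05 to 0.0221. At an unadjusted p under 0.05 it was the sole member (26.9% of genes). The next smallest adjusted p were those of Ckm (-4.40, SE 1.89, 0.189), Acta1 (-4.68, SE 2.03, 0.192), Myh1 (-6.03, SE 2.75, 0.211) and Mb (-4.60, SE 2.13, 0.217).

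KO libraries were below WT libraries without overlap for 23 of the 34 members tested under estradiol, against 16.9% of genes. The median member stood at -2.42. Blood markers summed to 27.5, 51.8 and 28.8 CPM in WT estradiol and 982, 3598 and 1226 CPM in KO estradiol. Of the blood markers, 5 of 7 tested were called higher in KO by edgeR, and 3 of 7 vessel markers were called lower (11.5% of all genes called). Their part in the result was not tested. Actn2 had 110 counts in WT estradiol and 1 in KO estradiol, a ratio of 88.1 (15.5 to 3511). DESeq2 called 10 members (15.3% of genes), a fit of only these 6 libraries called 7 (10.3%), and the authors' deposited table called 17 of the 28 with an adjusted p (13%). The KO estradiol libraries enter this comparison and the one with KO placebo, so the 2 are not independent.

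Other muscle genes were read from lists of further parts. Of 29 tested genes of the sarcomere outside the 37, none was called for estradiol in KO by edgeR (2.73% of all genes), 16 were lower and 1 higher at an unadjusted p under 0.05 (6.8% of all genes lower), and their median was -3.11. Xirp2, an actin binding protein of the muscle tendon junction, was at 28.0, 29.3 and 4.88 CPM in KO placebo and 0, 0 and 0.0894 CPM in KO estradiol, a ratio of 584 on 1401 and 2 counts (exact 95% counting interval 161 to 4828, adjusted p = 0.159 by edgeR). Tropomyosin Tpm1, which many cell types express, was at 644 to 739 CPM in KO placebo and 532 to 597 CPM in KO estradiol (-0.30, adjusted p = 0.0938). Trim54, a ligase of the sarcomere, had 106 counts in KO placebo and 2 in KO estradiol, a ratio of 44.2 (11.9 to 370, adjusted p = 0.159).

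Of 16 tested genes of calcium release and the nerve contact, none was called in the same comparison (2.73% of all genes) and 5 were lower at an unadjusted p under 0.05 (6.8% of all genes lower), with a median of -0.37. Their smallest adjusted p by edgeR were those of Jph1 (-0.90, 0.0858) and Trdn (-4.90, 0.113), which hold the release site together, and Jsrp1 (-4.22, 0.167). Of 21 energy genes, 1 was called (2.73% of all genes) and 9 were lower at an unadjusted p under 0.05 (6.8% of all genes lower). The called gene was the muscle phosphofructokinase Pfkm, which was at 53.3, 57.1 and 37.1 CPM in KO placebo and 33.1, 26.8 and 30.1 CPM in KO estradiol (log2 -0.71, SE 0.16, adjusted p = 0.0431). Ucp3, a mitochondrial carrier of muscle, stood at -3.62 (0.114). Cox8b, a respiratory chain subunit of muscle and heart, had 0 counts in KO estradiol and 2.16, 3.61 and 0.340 CPM in KO placebo, and was at least 12.7-fold higher there against the floor of 3 counts per library.

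Genes of muscle stem cells and of heart and smooth muscle were read in the same way. Of 12 tested myogenic genes none was called for estradiol in KO, against 2.73% of all genes, and their median was -0.14. Pax7, Myod1 and Myog had 0 to 3, 0 to 13 and 0 to 10 counts per library, the highest of Myod1 and Myog in WT placebo 2. By edgeR, the adjusted p was 0.303 for Cdh15, the cadherin of muscle precursors (log2 -0.43). It was 0.309 for Vgll2, which had 26 counts in KO placebo and 0 in KO estradiol and was at least 2.43-fold higher in KO placebo against the floor. Of 13 tested heart and smooth muscle genes none was called, against 2.73% of all genes, and their median was -0.11. Their smallest adjusted p by edgeR were those of the smooth muscle genes Mylk (-0.24, 0.273), Synpo2 (-1.11, 0.351) and Smtn (-0.20, 0.361). The heart atrial genes Myl7 and Nppa had at most 1 count and no count in any library, and heart actin Actc1 had 17 counts in WT placebo 2 and 0 to 7 elsewhere. Smooth muscle actin Acta2 was at 97.5 to 215 CPM, with 97.5 to 172 CPM in KO estradiol, where Acta1 was lowest. Pax7, Myod1, Myog, Myl7, Nppa, Actc1 and Acta2 were chosen after their values were seen.

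Sums of other cell markers differed in their spread. Blood markers ranged 811-fold, from 4.44 to 3598 CPM, more widely than the muscle genes and with their highest 3 libraries in KO estradiol. Fat cell, nerve and vessel markers summed to 272 to 389, 156 to 186 and 354 to 499 CPM, ranges of 1.43-fold, 1.19-fold and 1.41-fold over the 11 libraries, beside 58.8-fold for the muscle genes. Car3, at 260 to 382 CPM, made up most of the fat cell sum, so the narrow range of that sum is largely the range of Car3. Other fat cell markers ranged more widely, Adipoq from 0.165 to 19.1 CPM and Fabp4 from 2.23 to 20.3 CPM. Of 5 fat cell markers tested for estradiol in KO, 4 had a negative difference and 1, Plin4, was called (2.73% of all genes). Plin4 was at 1.52, 4.92 and 0.8495 CPM in KO placebo and 0.223, 0 and 0 CPM in KO estradiol (log2 -4.98, SE 0.99, adjusted p = 0.0260 by edgeR). Adipoq went the other way, at 1.86, 8.96 and 2.34 CPM in KO placebo and 3.41, 19.1 and 7.19 CPM in KO estradiol (log2 1.18, adjusted p = 0.474 by edgeR). Car3, Plin4, Adipoq and Fabp4 were chosen after their values were seen. Cartilage and fibrous tissue markers ranged 3.28-fold and 1.56-fold. Their part in the differences between groups was not tested.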

How the data were processed

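Poly-A RNA of condylar fibrocartilage was sequenced in 11 libraries. The submitters' processing notes name bcl2fastq 2.17, TopHat and mouse build mm9. No source used here gives the counting program, annotation or strand setting. The authors deposited raw counts for 23420 symbols, with 1 column per library and 0 unmapped columns. Per the file headers, the authors' comparison tables hold log2 fold changes with p-values and adjusted p-values, and only their calls are quoted.

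In R 4.3.3, edgeR 4.0.16 kept 14531 genes (filterByExpr, at least 10 counts in enough libraries and 15 in total), scaled totals by TMM and fitted a robust quasi-likelihood model to 4 groups with 7 residual degrees of freedom. This passed 34 of the 37 genes. Benjamini-Hochberg adjustment ran over all tested genes and calls were made at 0.05; SE is the absolute log2 difference over the square root of F. A gene that passed the filter through a group where it is high had to differ, so counts among members that passed are descriptions. There were 5 comparisons. DESeq2 1.42.0 and limma 3.58.1 (voom) served as alternatives, beside DESeq2 size factors, no filter, an adjusted p under 0.1, only the groups compared, each library left out and the replicate number as a block. The fit was tested on simulated data in which every gene had the same spread. That test does not cover members whose libraries differ widely within a group. Lengths and shared 100-base windows came from GENCODE M21 (GRCm38), which differs from the authors' build, so coordinates are given only for the RefSeq promoter windows, in GRCm38.

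Values in every library are given for the 2 members of each role with the highest mean CPM, the highest of each fibre class, the 5 with the smallest p in each comparison and the 3 with the smallest range. Of each other muscle list the 3 with the smallest p for estradiol in KO are named, except 1 that is not reported here. The members and lists were chosen with earlier results of these data known. Deviations from group means of same-numbered KO placebo and KO estradiol libraries correlated at 0.29, 0.39 and 0.14. Those of WT placebo and estradiol correlated at -0.20 and -0.16. Across genotypes, all same-numbered pairs were positive, at 0.0504 to 0.198, and pairs of different number ran from -0.198 to 0.112. Deviations within a group depend on each other, so these correlations are not independent and do not settle a pairing. The labels do not say what a replicate number marks. The main fit used no block, and the number was a block only in an alternative fit. No libraries of a group agreed within sampling noise. 4 muscle or cartilage genes were read under older symbols in the table.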

Additional observations from a re-analysis of the deposited data

How the results depend on the processing

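Of 608 alternative values, most were scored the same as the main analysis. Of those for single genes, 388 kept direction and side of the threshold, 24 became called and 4 reversed. Of those for counts of calls, medians and sums, 173 were scored the same, 16 moved and 3 reversed. There the criterion was loose: medians could shift by up to 1.89 log2 units without reversing, and sums by up to the SD of their group. Members called for estradiol in WT were 0 in the main analysis, 1 at an adjusted p under 0.1, 2 with DESeq2 and 0 to 4 with a library left out (4 without WT placebo 1: Tnnt1, Myl2, Myh7 and Myh3). For estradiol in KO they were 0, against 24 with DESeq2, 1 with only the groups compared (Myot) and 0 to 2 with a library left out (2, Tcap and Actn2, without either WT placebo library). For the interaction they were 0, against 1 with DESeq2 and 0 to 1 with a library left out. For KO against WT under placebo they were 0, against 2 with DESeq2 and 0 to 3 with a library left out (3 without WT placebo 1: Tnnt1, Tnni1 and Myh7). Under estradiol they were 1, against 10 with DESeq2, 7 with only the groups compared and 1 to 1 with a library left out. The cause of these differences was not tested.

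With a library left out, the median log2 difference of members ran from -4.12 to 1.08 for estradiol in WT, from -5.06 to -3.89 in KO, from 0.49 to 5.12 for the interaction, from -1.70 to 2.96 for KO against WT under placebo and from -2.62 to -1.17 under estradiol. The values 1.08, 5.12 and 2.96 were those without WT placebo 2, and limma-voom gave 0.48 under placebo. Without WT placebo 2, Tcap, Des (both estradiol in WT) and Myh3 (KO against WT under placebo) turned to 0.16, 0.78 and 1.54, over ranges of -4.74 to 0.16, -4.78 to 0.78 and -2.43 to 1.54. Without WT placebo 1, Myl3 under placebo was 0.030 (-1.26 to 0.030). The summed level of KO estradiol was 40.7 CPM with plain library totals and 41.7 CPM without Rn45s; with a library left out, sums ran from 77.7 to 2238 CPM in WT placebo, 90.4 to 252 in WT estradiol, 487 to 988 in KO placebo and 38.8 to 40.0 in KO estradiol.

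With the replicate number as a block, medians were -1.72, -4.31, 1.92, -0.13 and -2.52 in the order above, and 0, 0, 0, 0 and 1 members were called; the block changed no call. Depth limits Myh3, Myh4, Myh7, Myh8, Myl2 and, in KO estradiol, Actn2 and further members, where counts lie near the floor. In KO estradiol 1 to 3, Myh1 had 1, 0 and 9 counts and Myh2 had 1, 5 and 3. Mybpc1 had 2, 3 and 2 counts there, Myoz1 had 0, 3 and 1, and Neb had 2, 3 and 9. Of all members, 14, 14 and 10 stood at or under 3 counts there, against 1 to 9 in the other libraries. The size of fitted differences that rest on such counts is uncertain.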
